A study of Heliocidaris erythrogramma with 7 samples.

Results

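The 6 genes described here, *hbn*, *six3*, *foxq2-1*, *fzd5/8*, *sfrp1/5* and *awh*, are genes of the animal pole of the sea urchin embryo. They were chosen by name, and every feature of *Heliocidaris erythrogramma* (*He*) with 1 of these names was taken, which gave 8 of 38707 features and 6 of 20615 distinct gene names. The names *hbn* (HER_10974.t1), *six3* (HER_17866.t1), *fzd5/8* (HER_23275.t1) and *awh* (HER_47907.t1) each stand for 1 feature. The name *foxq2-1* covers HER_16550.t1, which held all 8248 unique molecular identifiers (UMIs) of the name, and HER_16548.t1, which had 0 UMIs in every library. The name *sfrp1/5* covers HER_33519.t1 with 16103 UMIs and HER_33525.t1 with 290. How reads were divided between features of the same name is not given in the sources used here, so only the sums of these names were used.

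The study made single-cell RNA-seq libraries of whole *He*, a sea urchin whose larva develops without feeding, to follow how its cell types form. Libraries at 6, 9, 12, 16, 20, 24 and 30 hours post fertilization (hpf) were used here, 1 at each age, and the later ages were not analysed here. The samples are labelled as larvae at every age and differ in the labels by age alone. Animals were washed in calcium-free sea water and dissociated, the cells were fixed in methanol, and UMIs were counted from the 3′ ends of transcripts.

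In sea urchins the ectoderm of the animal pole becomes the anterior neuroectoderm, which carries the apical tuft and gives rise to the serotonergic neurons of the apical organ. Its regulatory state is at first broad and is then restricted to the pole by Wnt signals from the posterior of the embryo. *six3* and *foxq2* encode the transcription factors at the top of this network, and *hbn* encodes the paired-class homeodomain factor Homeobrain. *awh* encodes a LIM homeodomain factor, *fzd5/8* encodes a Frizzled receptor for Wnt ligands, and *sfrp1/5* encodes a secreted Frizzled-related protein that binds Wnt ligands outside the cell.

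*foxq2* was also stained by the study in older whole larvae, by hybridization chain reaction (HCR), as a marker of the animal pole domain. Its probe set holds 17 pairs, each made of 25 bases that pair with the transcript on either probe, with a GC content between 36.0% and 68.0%. The first 2 pairs are shown as examples of the bases stained under the name *foxq2*. The capitals mark the bases that pair with the transcript, and the lower-case bases are the spacer and the split initiator. The probes were not matched to HER_16550.t1 or HER_16548.t1, since no transcript sequence was used here.
foxq2 pair 1, first probe: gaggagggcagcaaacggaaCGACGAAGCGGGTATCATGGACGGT
foxq2 pair 1, second probe: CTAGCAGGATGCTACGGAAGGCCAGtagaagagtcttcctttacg
foxq2 pair 2, first probe: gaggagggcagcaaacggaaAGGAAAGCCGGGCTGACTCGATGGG
foxq2 pair 2, second probe: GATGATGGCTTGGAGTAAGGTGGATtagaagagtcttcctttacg

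The filter on cells kept 23156 of 23173 barcodes, with 936734 to 10769034 UMIs per library and a median of 1273 to 2581 UMIs per cell. The 16 hpf library stood apart with 486 cells, against 2065 to 5346 in the others. Of the barcode sequences, 64 were found in 2 libraries and 0 in more than 2. Every library stands for 1 age without a replicate, so no test between ages was made, and the 95% intervals (exact Poisson for UMIs, exact binomial for shares of cells) cover counting error only. A gene was called higher or lower where the ratio, after adding 5 CPM to both levels, reached 2-fold. CPM are the UMIs of a gene scaled to a common library total.

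All 6 genes were sparse at 6 hpf and were higher by at least 2-fold at 9 hpf, a step at which 12.9% of all tested names were higher. *hbn* had 7.72 CPM at 6 hpf (5.61 to 10.4), 530.4 at 9 hpf and 1041 at 12 hpf (1019 to 1063), its highest level. It then had 679, 857, 612 and 389.9 CPM in the 4 later libraries in order of age. *hbn* was the only 1 of the 6 genes with its highest level at 12 hpf, and that level was 2.67-fold above 30 hpf.

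The other 5 genes had their highest CPM at 9 hpf. *six3* had 41.4, 987, 454, 599, 535, 462 and 366 CPM in the 7 libraries in order of age. *sfrp1/5* had 37.5, 831, 397, 325, 215, 225 and 95.5 CPM. *six3* thus lay between 454 and 599 CPM from 12 to 24 hpf, and both genes had their lowest level after 6 hpf at 30 hpf. The intervals of *six3* overlapped between 16 and 20 hpf and between 12 and 24 hpf, and those of *sfrp1/5* between 20 and 24 hpf.

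*foxq2-1* and *fzd5/8* were the only 2 of the 6 with more than 50 CPM at 6 hpf, and both ended below that starting level. *foxq2-1* had 78.8, 394, 238, 232, 104, 74.3 and 34.0 CPM from 6 to 30 hpf. *fzd5/8* had 82.6, 395, 192, 215, 142, 92.1 and 48.9 CPM. The peak of *foxq2-1* was 11.6-fold above its 30 hpf level and that of *fzd5/8* 8.09-fold, against 2.70-fold for *six3*. The intervals of *foxq2-1* overlapped between 12 and 16 hpf and between 6 and 24 hpf, and so did those of *fzd5/8*.

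*awh* was the sparsest of the 6, with 5.44, 108, 57.7, 41.6, 51.1, 19.3 and 20.9 CPM in order of age. Its intervals at 12, 16 and 20 hpf overlapped from 1 neighbour in the order to the next, and those at 24 and 30 hpf overlapped too.

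**Figure D1:**
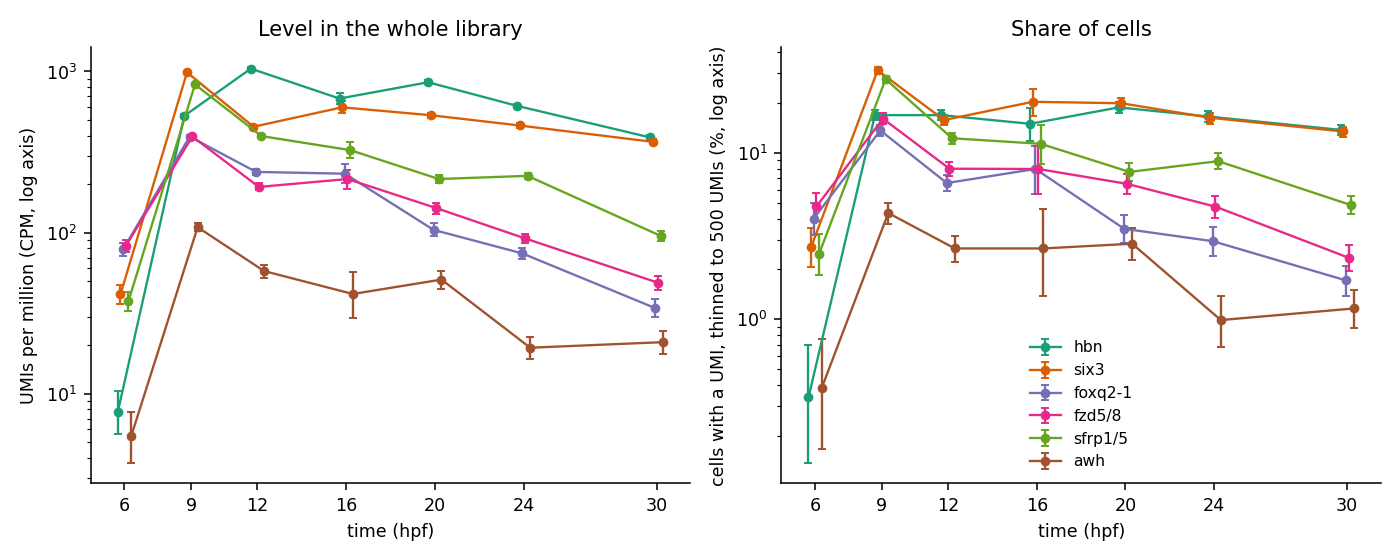
Levels of the 6 animal pole genes in CPM (left) and share of cells with at least 1 UMI after thinning each cell to 500 UMIs (right), both on log axes, against age in hpf. Points are single libraries and bars are 95% intervals of counting error. *hbn* is highest in CPM at 12 hpf and the other 5 genes at 9 hpf.

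After 9 hpf the calls came 1 or a few genes at a time. From 9 to 12 hpf, 3 of the 6 were lower by at least 2-fold, *six3* (2.18-fold), *fzd5/8* (2.06-fold) and *sfrp1/5* (2.09-fold), where 11.7% of all names were lower. With median-of-ratios size factors in place of CPM, all names shifted by 0.21 on the log2 scale in this step and none of these 3 reached 2-fold, while *hbn* was then higher by 1.17 on the log2 scale against 0.97 with CPM. None of the 6 was called between 12 and 16 hpf.

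After 16 hpf *hbn*, *six3* and *fzd5/8* had no further call, and the other 3 genes were each called lower at least 1 time. Calls compare neighbouring ages only. Over several steps *fzd5/8* still went from 215 CPM at 16 hpf to 48.9 at 30 hpf, and *hbn* from 857 at 20 hpf to 389.9 at 30 hpf. *foxq2-1* was 2.22-fold lower at 20 than at 16 hpf (104 against 232 CPM), where 1.31% of all names were lower. *awh* was 2.64-fold lower at 24 than at 20 hpf, where 1.18% of names were lower. Between 24 and 30 hpf, 1.06% of names were lower, among them *foxq2-1* (2.18-fold) and *sfrp1/5* (2.36-fold).

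To compare shares of cells at equal depth, each cell was thinned at random to 500 UMIs, which left out 0 to 185 shallower cells per library. *six3* then had a UMI in 2.71% of cells at 6 hpf and in 31.2%, 15.7%, 20.2%, 19.8%, 16.2% and 13.4% at the later ages in order. *hbn* was found in 0.339% of cells at 6 hpf and in 16.8%, 16.8%, 14.9%, 18.7%, 16.5% and 13.7% later. The share of cells with *hbn* was thus nearly the same at 9 and 12 hpf, while its CPM was 1.96-fold higher at 12 hpf. Without thinning, 35.5% of cells had *hbn* at 9 hpf and 23.7% at 12 hpf.

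The level of *hbn* per positive cell differed accordingly. Thinned cells with *hbn* held on average 1.53 of its UMIs at 9 hpf and 2.98 at 12 hpf, and later 2.79, 2.68, 2.23 and 1.89. At 12 hpf, 370 cells with at least 3 thinned UMIs held 76.0% of all thinned *hbn* UMIs, against 27.0% in 79 such cells at 9 hpf. Few cells had as many thinned UMIs of the receptor gene *fzd5/8*, at most 17 in a library (9 hpf).

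The shares of the 4 remaining genes were all lower at 30 than at 9 hpf by more than the width of their intervals. *foxq2-1* was found in 13.6%, 6.57%, 7.98%, 3.49%, 2.94% and 1.71% of thinned cells from 9 to 30 hpf. *sfrp1/5* was found in 27.6%, 12.2%, 11.3%, 7.66%, 8.89% and 4.84%, and *fzd5/8* in 16.0%, 8.01%, 7.98%, 6.50%, 4.74% and 2.34%. *awh* was found in 4.34% of cells at 9 hpf and in 1.16% at 30 hpf. The unthinned shares at 30 hpf were 2.77% for *foxq2-1*, 8.81% for *sfrp1/5*, 5.85% for *fzd5/8* and 2.23% for *awh*.

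As a measure of UMIs in cells that should lack these genes, cells with at least 3 UMIs over at least 2 genes of a list of 13 endomesoderm genes were used as a reference. At 9 hpf these 1009 cells (median 2625 UMIs, against 2429 in the other cells) had *six3* in 2.97% after thinning, against 40.6% of other cells, and *foxq2-1* in 1.29% against 17.7%. *hbn* was in 1.88% against 21.8%, *fzd5/8* in 2.68% against 20.5% and *awh* in 0.297% against 5.69%. *sfrp1/5* had the highest reference share at this age, 9.61% against 33.7%. At 30 hpf the reference shares were 0.570% for *hbn* against 15.8% of other cells, 3.13% for *six3* against 15%, 0.142% for *foxq2-1* against 1.95% and 2.14% for *sfrp1/5* against 5.27%, with medians of 1739 and 1221 UMIs.

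*six3* departed from this pattern at 16 hpf. There 26 of 143 reference cells had it, 18.2% (12.2 to 25.5%), against 21.1% of other cells (16.7 to 26.1%), and the intervals overlapped. *fzd5/8* also had overlapping intervals at 16 hpf, 5.59% against 9.09%, and so had *awh*, at 16 hpf with 0 of 143 reference cells against 3.90% and at 30 hpf with 0.285% against 1.30%. At 20 hpf *six3* was found in 8.59% of 780 reference cells against 23.9% of other cells, and *hbn* in 1.28% against 25.1%. At 6 hpf only 8 cells met the reference rule. The 6 genes had 0 UMIs in them after thinning, and 0 of 8 cells allows a share of up to 37.5%, taken as 3 counts of 8.

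The overlap of the 6 genes was widest at 9 hpf and narrower later, both in the share of cells and in the number of genes per cell. At 6 hpf, 1.02% of thinned cells had UMIs of at least 2 of the genes (21 of 2065 cells). The share was 31.0% at 9 hpf (29.6 to 32.5%). It was 16.4%, 16.6%, 15.4% and 13.5% from 12 to 24 hpf, and 9.46% at 30 hpf (8.67 to 10.3%). The shares from 12 to 20 hpf had overlapping intervals, while those at 6, 9 and 30 hpf stood apart from all others.

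Cells with at least 3 of the genes made up 17.0%, 8.90%, 8.20%, 5.92%, 5.75% and 2.56% from 9 to 30 hpf, a 6.64-fold difference between the ends, against 3.28-fold for at least 2 genes. Cells with at least 1 gene went from 52.6% at 9 hpf to 32.0% at 12 hpf and 24.7% at 30 hpf. Among the cells with at least 1 gene, the share with at least 2 was 7.47% at 6 hpf and 59.0%, 51.2%, 46.6%, 43.5%, 46.3% and 38.3% later. Cells with a UMI of any of the genes thus had UMIs of fewer of the others at 30 than at 9 hpf. Each of the 6 genes was also found in a smaller share of all cells at 30 hpf.

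Without thinning, cells with all 6 genes numbered 388 at 9 hpf (9.62% of cells), then 86, 9, 14 and 12, and 4 at 30 hpf (0.0748%). None of the 2065 cells at 6 hpf had all 6. These counts are not at equal depth, with a median of 2478 UMIs per cell at 9 hpf and 1273 at 30 hpf. After thinning, 4 cells had all 6 genes at 9 hpf, 4 at 12 hpf and 0 at every other age. Leaving out the cells that Scrublet, a doublet caller, scored highest gave shares with at least 2 genes of 30.6% at 9 hpf and 9.54% at 30 hpf after thinning.

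**Figure D2:**
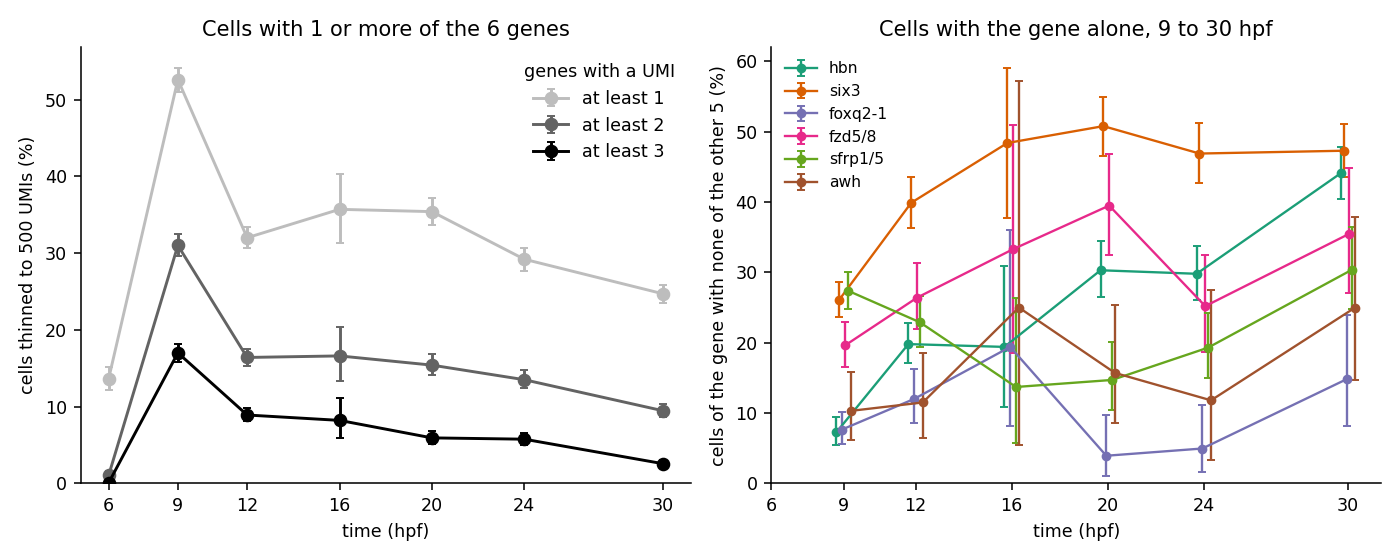
Share of cells, thinned to 500 UMIs, with UMIs of at least 1, 2 or 3 of the 6 genes (left), and, for each gene, the share of its cells with none of the other 5 (right), against age in hpf. Points are single libraries and bars are 95% binomial intervals. Cells with at least 2 genes go from 31.0% at 9 hpf to 9.46% at 30 hpf, and *foxq2-1* cells are seldom alone at 20 and 24 hpf.

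The share of cells in which a gene was found alone separated the genes. *six3* was alone in 26.1% of its cells at 9 hpf (328 of 1258) and then in 39.9%, 48.4%, 50.8%, 46.9% and 47.3%. *hbn* was alone in 7.24% of its cells at 9 hpf (49 of 677) and then in 19.8%, 19.4%, 30.3%, 29.8% and 44.1%. *foxq2-1* was seldom alone after 6 hpf, in 7.65%, 12.0%, 19.4%, 3.92%, 4.95% and 14.8% of its cells. At 20 hpf, 98 of the 102 cells with *foxq2-1* had at least 1 of the other genes.

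At 6 hpf, after thinning, 260 of the 281 cells with any of the genes had a single gene. Without thinning, 269 of the 2065 cells had at least 2 of the genes and 1143 had none. *fzd5/8* was alone in 91.8% of its 98 cells, *foxq2-1* in 83.1% of 83 and *six3* in 82.1% of 56. In the 30 ordered comparisons of cells with and without a given gene at 6 hpf, the intervals of the second gene overlapped in all 30, and no pair had more than 5 cells with both genes.

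Between 9 and 30 hpf, cells with 1 of the genes mostly had the others more often than cells without it. The intervals stood apart in all 30 ordered comparisons at 9 and 12 hpf, in 20, 28 and 28 of them from 16 to 24 hpf and in 25 at 30 hpf. Across the 15 pairs, the median share of cells with both genes among cells with either was 21.4%, 15.3%, 16.0%, 10.7%, 9.94% and 5.14% from 9 to 30 hpf. This share depends on how many cells have each gene as well as on how far they coincide. In most ordered comparisons, the ratio of the shares in cells with and without the first gene was higher at 30 than at 9 hpf. By *hbn* it was 2.71 and 4.39 for *six3*, and 2.48 and 6.40 for *sfrp1/5*. The ratio was lower at 30 hpf for *awh* with *foxq2-1* in both directions, and for *awh* in *sfrp1/5* cells. All genes of a pair were read in the same cells of 1 library, so the pairs are not independent of each other.

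**Figure D3:**
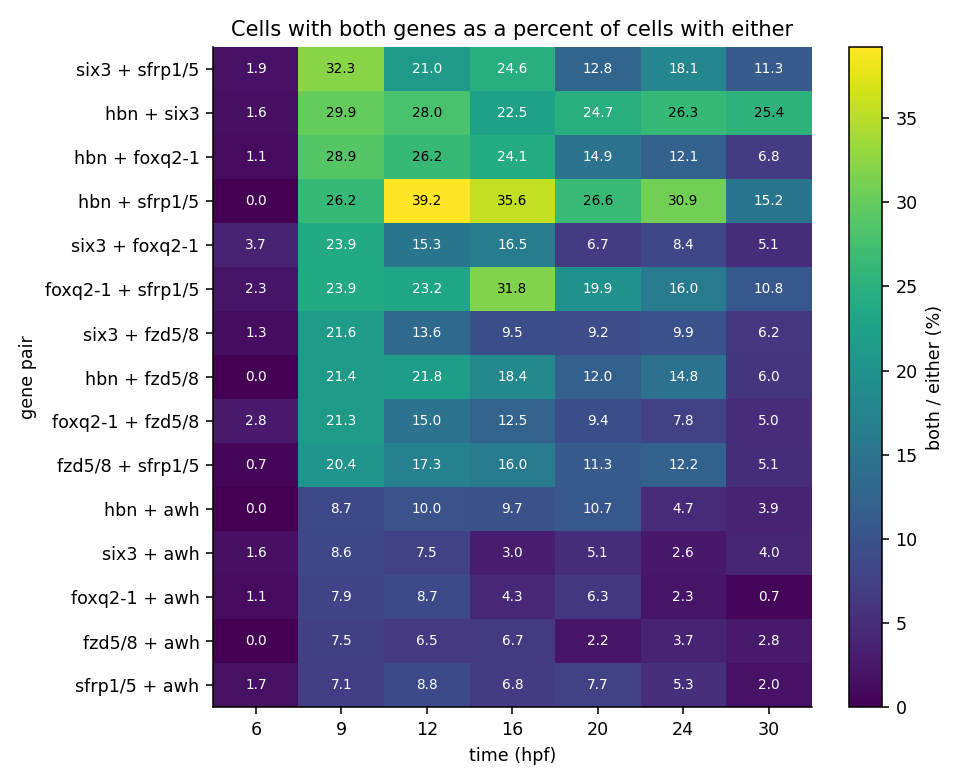
Cells with both genes of a pair as a percent of cells with either, after thinning to 500 UMIs, for the 15 pairs (rows, ordered by the 9 hpf value) at each age in hpf (columns). Colour and printed values show the same percent. *hbn* with *sfrp1/5* is the leading pair from 12 to 24 hpf and *hbn* with *six3* at 30 hpf.

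The leading pair changed with age. It was *six3* with *sfrp1/5* at 9 hpf (32.3% of cells with either), *hbn* with *sfrp1/5* from 12 to 24 hpf (39.2%, 35.6%, 26.6% and 30.9%), and *hbn* with *six3* at 30 hpf (25.4%). The pair of *hbn* and *six3* was the steadiest of these, with 29.9%, 28.0%, 22.5%, 24.7%, 26.3% and 25.4% from 9 to 30 hpf. *hbn* with *sfrp1/5* was at 15.2% at 30 hpf.

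Among *hbn* cells, the antagonist gene was less frequent with age, while *six3* stayed near 1 level from 12 hpf. *sfrp1/5* was found in 54.9%, 48.6%, 46.3%, 29.6%, 36.3% and 17.8% of *hbn* cells from 9 to 30 hpf. *six3* was found in 65.7% of *hbn* cells at 9 hpf and then in 42.2%, 43.3%, 40.8%, 41.3% and 40.0%. In cells without *hbn*, *sfrp1/5* went from 22.1% at 9 hpf to 4.86% at 12 hpf and 2.78% at 30 hpf.

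*foxq2-1* cells were the smaller set and most of them also had *hbn*. *hbn* was found in 50.1%, 74.1%, 55.6%, 82.4%, 71.3% and 58.0% of *foxq2-1* cells from 9 to 30 hpf, with 20 of 36 cells at 16 hpf. Cells without *foxq2-1* had *hbn* in 11.3% to 16.4% over these ages. In the other direction, *foxq2-1* was found in 40.6%, 28.9%, 29.9%, 15.4%, 12.7% and 7.21% of *hbn* cells. Few *hbn* cells thus had *foxq2-1* at 30 hpf, while *hbn* was in 50.1% or more of the *foxq2-1* cells at every age from 9 hpf.

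*sfrp1/5* was in 58.5%, 53.8%, 58.3%, 52.9% and 55.4% of *foxq2-1* cells from 9 to 24 hpf, with overlapping intervals, and in 37.5% at 30 hpf (27.4 to 48.5%). Over the same ages it went from 22.8% to 7.49% and then 4.28% of the cells without *foxq2-1*. The secreted antagonist was 2.57-fold as frequent in *foxq2-1* cells as elsewhere at 9 hpf and 8.77-fold at 30 hpf, when 33 cells had both.

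The pair of *awh* and *foxq2-1* had few cells at the later ages. At 9 hpf *foxq2-1* was found in 30.3% of *awh* cells (53 of 175) and in 12.9% of cells without *awh*. The share was 27.9% at 12 hpf (34 of 122) and 13.3% at 20 hpf (11 of 83), and the intervals of cells with and without *awh* stood apart at these 3 ages. They overlapped at 16, 24 and 30 hpf, where 2, 3 and 1 cells had both genes, and at 30 hpf the shares were 1.67% of *awh* cells (0.0422 to 8.94%) and 1.71% of the others. The ratio of the shares with and without *awh* was 2.36, 4.66, 2.15, 4.14 and 3.07 from 9 to 24 hpf and 0.977 at 30 hpf. In the other direction, *awh* was found in 9.65%, 11.3%, 5.56%, 10.8%, 2.97% and 1.14% of *foxq2-1* cells. *hbn* was found in 38.9%, 66.4%, 58.3%, 73.5%, 79.4% and 48.3% of *awh* cells from 9 to 30 hpf.

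To see what else these cells expressed, CPM in cells with at least 2 of the 6 genes, without thinning, was compared with CPM in cells with none, within each library. The cells with at least 2 had medians of 3005, 2618, 1806, 1931, 1512, 2131 and 1116 UMIs in order of age, and the cells with none 2346, 2184, 1530, 1787, 1431, 2373 and 1343. Of all other names tested, 0.0911%, 1.87%, 1.51%, 4.43%, 3.02%, 3.81% and 6.85% from 6 to 30 hpf were at least 2-fold higher in the cells with 2 or more of the genes. Names at least 2-fold lower made up 0.546%, 1.87%, 4.35%, 6.84%, 6.43%, 6.05% and 7.45%.

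The homeobox gene *rax*, a factor of the anterior neuroectoderm and of the vertebrate eye field, was among the 5 names with the highest ratio in all 5 libraries from 12 to 30 hpf. It had 45.9 CPM in cells with at least 2 of the 6 genes at 12 hpf against 0.515 in cells with none, then 161 against 5.11, 232 against 0.858, 255 against 1.22, and 322 (290.4 to 356) against 6.12 at 30 hpf. Its CPM in these cells was higher at each later age, with overlapping intervals between 16 and 20 and between 20 and 24 hpf.

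Among the other leading names, *zic-1*, a zinc finger factor, led at 12 hpf with 152 against 1.54 CPM. The LIM homeobox gene *lhx2-1* was in the leading 5 at 20 hpf (63.7 against 0.429 CPM) and 24 hpf (123 against 2.23). *z133-1* was among them at 16 hpf (120.0 against 5.11 CPM), and the Wnt antagonist gene *dkk1* at 24 hpf (1074 against 75.9) and 30 hpf (839 against 52.7). Features without a descriptive name filled many of the other places. One named *hypp-2442* was in the leading 5 in all 6 libraries from 9 to 30 hpf, with 309.8 against 12.5 CPM at 9 hpf, and HER_33518.t1, whose number comes just before that of the main *sfrp1/5* feature, was in 5, with 137 against 5.41 CPM at 12 hpf. Whether reads are shared between these 2 features was not tested.

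Apart from *hypp-2442*, the leading names of the first 2 libraries were not among those of the later ones. At 9 hpf they were *hypp-596* (430.2 against 12.9 CPM), *hypp-2442*, *arh/ldl* (350.3 against 36.6), *ids-3* (71.2 against 4.73) and *hypp-2985* (267 against 33.1). At 6 hpf only 8 names reached 2-fold, led by *glyt-1* with 58.9 CPM (44.0 to 77.2) against 17.3 (12.9 to 22.9). In thinned cells at 6 hpf, of which only 21 had at least 2 of the genes, 695 names reached 2-fold, so the count at this age depends on how the cells are chosen.

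Of a list of 17 other genes of the animal pole and anterior neuroectoderm, 15 matched a name in the files. In cells with at least 2 of the 6 genes, 0 of 4 tested list genes were at least 2-fold higher at 6 hpf, 1 of 5 at 9 hpf and 5 of 10 at 12 hpf. The counts were 3 of 6, 7 of 12, 8 of 12 and 9 of 12 from 16 to 30 hpf. The median ratio over the tested list genes was 3.75 at 12 hpf and 3.50 at 30 hpf, against 0.974 and 0.944 over all names. None of them was at least 2-fold lower from 12 to 30 hpf.

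The genes of this list came in at different ages. *foxj1*, the regulator of motile cilia, was the only 1 higher at 9 hpf (144 against 30.5 CPM), and it was higher again at 30 hpf (71.1 against 24.1). From 12 hpf *acsc*, a proneural bHLH gene (62.5 against 5.92 CPM), *nkx3-2* (28.9 against 0.772), *rax*, *z133-1* and *zic-1* were higher. *isl*, a LIM homeobox gene of neurons, was higher at 20 hpf (95.1 against 18.0), 24 hpf and 30 hpf, and *dmrta2* at 24 hpf (63.3 against 7.10) and 30 hpf (166 against 20.8). Lower at 9 hpf were *delta*, the Notch ligand (9.50 against 156 CPM), and *soxc* (80.8 against 511).

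Of 6 neural genes, 6, 5, 3, 4, 5 and 6 had enough UMIs to be tested from 9 to 30 hpf. Of those tested, 1 to 3 were higher at each age and 0 lower. *smadip* was higher at 9, 12, 20 and 24 hpf (264 against 112 CPM at 9 hpf), and the secretory granule gene *secrtag* (48 against 10.9) and the synaptotagmin gene *syt4* (18.8 against 5.35) were higher at 30 hpf. By the split on *hbn* and *six3* described last, these 2 genes were high in cells with *six3* and no *hbn* (123 and 43.6 CPM) and low in cells with both (4.31 and 1.44), against 14.6 and 5.95 in cells with neither. *myt1* was higher at 16 and 30 hpf (84.0 against 37.1 at 30 hpf). *tph*, which encodes the enzyme of serotonin synthesis, was higher at 24 hpf with 16.5 against 2.84 CPM, from 36 and 14 UMIs. Of 4 early ectoderm genes, *el1l4* alone was higher, at every age from 12 hpf, with 4767 against 1032 CPM at 30 hpf. None of the other 3 was called at any age, and the median ratio of the list lay between 0.848 and 1.03 from 12 hpf on.

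Most genes of the endomesoderm list were lower in the cells with at least 2 of the 6 genes. Of the list of 13 endomesoderm genes, 8 of 10 tested were at least 2-fold lower at 9 hpf, 11 of 12 at 12 hpf, 7 of 11 at 16 hpf and 8 of 12 in each later library, and none was higher. The endoderm gene *foxa* had 44.4 against 609.5 CPM at 9 hpf, and *hox11/13b* 36.1 against 573. *pks1*, which encodes the polyketide synthase of pigment cells, had 5.99 against 325 CPM at 20 hpf. A list of 6 genes of the gut and left coelomic pouch, added after the values had been seen, had members on both sides. Of those tested, 2 of 3 were lower at 12 hpf and 4 of 5 at 30 hpf, with 0 higher at either age. At 16 hpf 1 of 4 was higher and 0 lower. At 20 hpf 1 of 6 was higher and 2 lower, and at 24 hpf 2 of 6 were higher and 2 lower. *foxy*, a gene of the coelomic pouch, was higher at 16 hpf (82.1 against 7.66 CPM), 20 hpf (56.2 against 6.01) and 24 hpf (14.7 against 0.609), and *soxe* at 24 hpf (28.9 against 5.28). *endo16*, a gut gene in both lists, was lower at 12 and 30 hpf and was not called at 16 hpf, where it had 218 against 112 CPM.

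**Figure D4:**
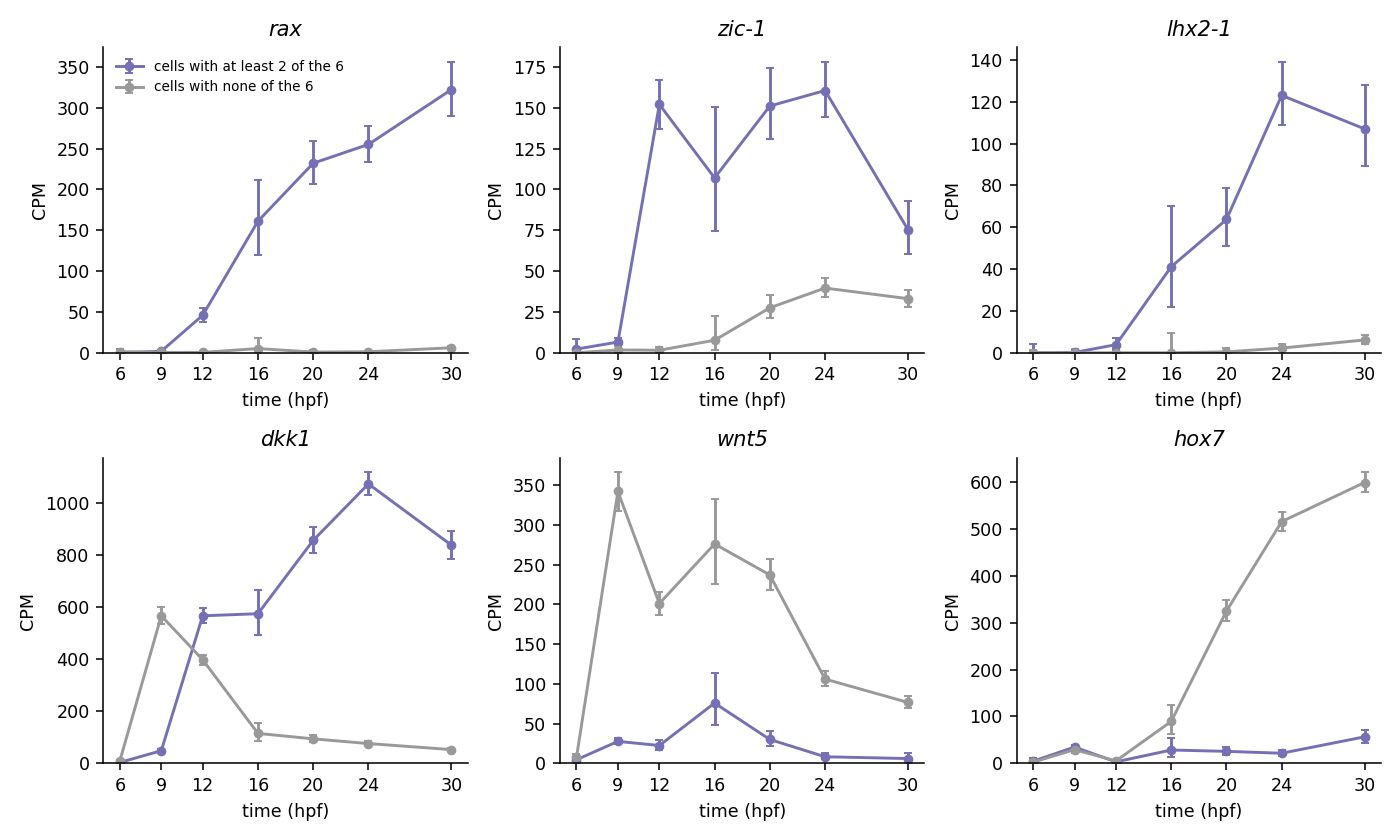
CPM of 6 other genes in cells with at least 2 of the 6 animal pole genes (purple) and in cells with none (grey), against age in hpf, each panel with its own axis from 0. Points are single libraries and bars are 95% Poisson intervals. *rax* goes from 45.9 to 322 CPM between 12 and 30 hpf in the first set, and *dkk1* is lower in it at 9 hpf and higher from 16 hpf.

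Because 2 of the 6 genes act in Wnt signalling, 24 names of other Wnt ligands, receptors, antagonists and mediators were followed in the same cells. Of those tested, 7 of 14 were at least 2-fold lower at 9 hpf, 6 of 15 at 12 hpf and 2 of 9 at 16 hpf, and then 7 of 16, 7 of 19 and 8 of 19. The ligand gene *wnt5* was lower at all 6 ages, with 27.6 against 342 CPM at 9 hpf and 6.00 against 76.6 at 30 hpf. *wnt1* had 38.2 against 680.1 CPM at 9 hpf and *wnt8* 18.1 against 124. *wnt1* is also in the endomesoderm list. The ligand genes called lower thus included *wnt5* at every age from 9 hpf.

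Higher in these cells were 1, 1, 4, 4, 3 and 3 genes of the list from 9 to 30 hpf. *wnt9* was higher at 16 hpf (120.0 against 20.4 CPM), and lower at 20 hpf (29.2 against 86.7), 24 hpf and 30 hpf. The co-receptor gene *lrp6* was higher from 16 to 30 hpf by 2.01-fold to 2.15-fold, and *tcf*, the transcriptional mediator of Wnt signals, had 1033 against 373 CPM at 16 hpf, 872 against 287 at 20 hpf and 824 against 282 at 24 hpf.

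*dkk1*, which encodes a secreted inhibitor of the Wnt co-receptor, changed sides. At 9 hpf it had 48.4 CPM in cells with at least 2 of the 6 genes and 567 in cells with none. At 16 hpf it had 575 against 115 and at 20 hpf 857 against 94.0. In thinned cells with *dkk1*, *hbn* was found in 2.01% at 9 hpf (6 of 299) and in 25.3%, 29.4%, 50.0%, 49.9% and 44.3% later, against 18.0% of cells without *dkk1* at 9 hpf and 10.4% at 30 hpf.

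In the ectoderm lists, *irxa* was higher in cells with at least 2 of the 6 genes from 9 to 30 hpf (17.6 against 3.87 CPM at 9 hpf and 275 against 95.6 at 30 hpf). *hox7*, a marker of the posterior ectoderm, was lower from 16 hpf on and had 56.5 against 599.5 CPM at 30 hpf. *msx* and *dlx*, homeobox genes of the aboral ectoderm and of other ectoderm, were both lower at 24 and 30 hpf, and *dlx* also at 16 and *msx* at 20 hpf, with 9.42 against 119 CPM and 74.5 against 378 at 30 hpf. *onecut*, the gene of the ciliary band, was higher at 9 hpf (1218 against 271 CPM) and was not called from 12 hpf.

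From 9 hpf on, the cells were also split by *hbn* and *six3* without thinning, a split made after the values had been seen. Cells with a single UMI of 1 of these genes and none of the other were left out. Cells with both numbered 1354, 782, 77, 511, 613 and 566 from 9 to 30 hpf. Cells with at least 2 *six3* UMIs and no *hbn* numbered 572, 302, 68, 286, 295 and 265, and cells with at least 2 *hbn* UMIs and no *six3* numbered 29, 217, 19, 166, 149 and 254. At 9 hpf few cells with at least 2 *hbn* UMIs thus lacked *six3*, and by 30 hpf the classes with 1 gene alone were of similar size. These numbers are not at equal depth, with a median of 2478 UMIs per cell at 9 hpf and 1273 at 30 hpf. After thinning, *six3* was in 65.7% of *hbn* cells at 9 hpf and in 40.0% at 30 hpf.

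Cells with *six3* and no *hbn* held the endomesoderm list more often than the other cells with *hbn* or *six3* from 16 hpf on. Compared with cells with neither gene, their share was lower at 20 and 24 hpf and had overlapping intervals at 16 and 30 hpf. After thinning, at least 1 UMI of the endomesoderm list was found in 6.12%, 13.2%, 48.5%, 32.6%, 29.5% and 25.5% of these cells from 9 to 30 hpf, with 33 of 68 cells at 16 hpf (36.2 to 61%). In cells with both genes the shares were 8.12%, 8.97%, 11.7%, 11.6%, 6.36% and 5.20%, and in cells with *hbn* and no *six3* they were 3.45%, 7.44%, 10.5%, 4.94%, 2.01% and 9.06%. The intervals of the *six3* class and of the class with both genes stood apart at 16, 20, 24 and 30 hpf. Cells with neither gene had the list in 51.0%, 52.3%, 46.7%, 46.6%, 40.6% and 29.9%. The *six3* class also held the list of other anterior genes, in 41.2%, 41.4%, 38.3% and 39.2% of cells from 16 to 30 hpf, against 31.2%, 52.5%, 46.0% and 49.8% of cells with both genes and 21.7%, 26.3%, 24.2% and 21.4% of cells with neither. Which list genes gave these shares was not separated. At 20 hpf several were far lower in the *six3* class than in cells with both genes. These were *rax* (7.46 against 324 CPM), *z133-1* (5.59 against 138), *lhx2-1* (1.86 against 70.7), *nkx3-2* (5.59 against 82.0) and *acsc* (1.86 against 36.6). *dmrta2* was on the other side (18.6 against 6.31) with overlapping intervals, and at 30 hpf *acsc* was alike (79.5 against 81.9).

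The list of the gut and left coelomic pouch was found in 32.4%, 33.0%, 28.1% and 19.4% of the *six3* class from 16 to 30 hpf. Cells with both genes had it in 10.4%, 7.50%, 5.22% and 2.51%, and cells with neither in 18.9%, 24.5%, 24.7% and 18.1%. The intervals of the *six3* class and of cells with neither gene stood apart at 20 hpf and overlapped at 16, 24 and 30 hpf. The median UMIs before thinning were 2057, 1774, 2834 and 1310 in the *six3* class and 2002, 1441, 2058 and 1116 in cells with both genes.

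**Figure D5:**
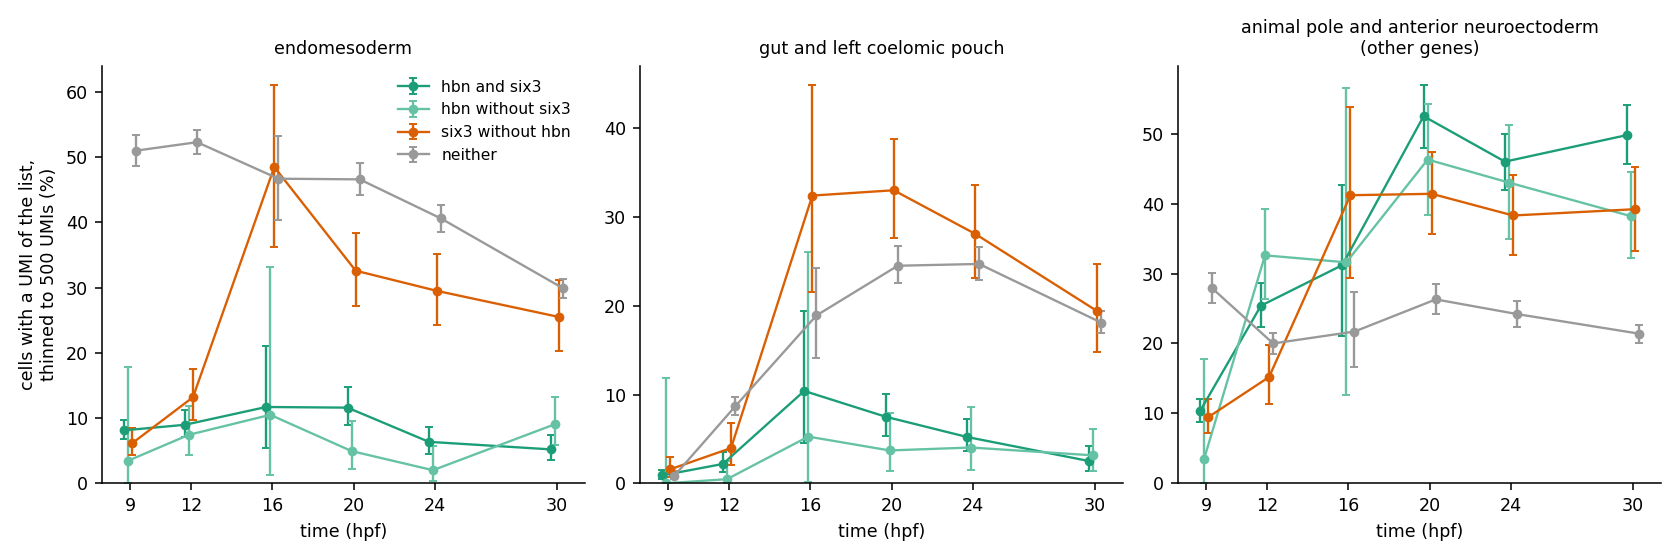
Share of cells, thinned to 500 UMIs, with at least 1 UMI of 3 gene lists, in cells with both *hbn* and *six3*, with 1 and not the other, or with neither, from 9 to 30 hpf. Points are single libraries and bars are 95% binomial intervals. Cells with *six3* and no *hbn* hold the endomesoderm list in 48.5% at 16 hpf, against 11.7% of cells with both genes.

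Single genes, chosen after their values had been seen, are given for the classes at the ages where they differed. *foxy* had 149.9 CPM in the *six3* class at 16 hpf (95 to 225) and 28.1 in cells with both genes, and 108 against 8.83 at 20 hpf. *endo16* had 482 against 50.6 CPM at 16 hpf and 349 against 34.1 at 20 hpf, with 165 CPM at 20 hpf in cells with neither gene. *wnt9* had 345 against 22.5 CPM at 16 hpf.

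At 12 hpf the *six3* class had 216 CPM of *chordin* and 144 of *gsc*, genes of the oral ectoderm. Cells with both *hbn* and *six3* had 25.2 and 39.9. *chordin* was also higher in the *six3* class at 16 hpf (586 against 259 CPM), 20 hpf (255 against 63.1) and 24 hpf (163 against 25.8). *gsc* had overlapping intervals at 16 hpf and was higher at 20 hpf (190.2 against 107 CPM) and 24 hpf (179.9 against 55.9). At 30 hpf the class held the neural genes *secrtag* (123 CPM, 90.8 to 163) and *syt4* (43.6 CPM, 25.4 to 69.8). Both had 0 UMIs in the 254 cells with *hbn* and no *six3*, with an interval that reaches 12.7 CPM. That interval covers their levels in cells with both *hbn* and *six3* (4.31 and 1.44 CPM). *rax* was at 0 UMIs in the 302 cells of the class at 12 hpf and had 105 CPM in it at 30 hpf.

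At 20 hpf, cells with *hbn* and no *six3* were close to cells with both genes in *rax*, *foxq2-1* and *sfrp1/5*, with overlapping intervals. At 20 hpf *rax* had 242 CPM in them (182 to 316) and 324 in cells with both genes (286 to 366), against 7.46 in the *six3* class. *foxq2-1* had 403 and 439 CPM, against 26.1 in the *six3* class, and *sfrp1/5* had 784 and 848, against 91.4. *fzd5/8* followed the same order with smaller gaps, at 246, 347 and 172 CPM, and its intervals overlapped between the classes with 1 gene alone. *foxq2-1* and *sfrp1/5* thus lay with *hbn* rather than with *six3* at this age. The classes with *hbn* alone and with both genes were not alike in every gene or at every age. Their intervals stood apart, for example, for *gsc* at 20 hpf (35.9 against 107 CPM) and *foxq2-1* at 16 hpf (438 against 939). They also stood apart for *sfrp1/5* at 24 hpf (712 against 1038).

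Between the 2 classes with *hbn*, the intervals of *acsc* stood apart at 12 hpf only, and those of *lhx2-1* overlapped at every age. At 12 hpf *acsc* had 148 CPM (111 to 193) in cells with *hbn* and no *six3* and 67.1 (54.6 to 81.5) in cells with both genes. At 20 hpf *lhx2-1* had 130.0 (87.0 to 187) against 70.7 CPM (53.4 to 91.8), with overlapping intervals. At 30 hpf both genes were on the other side, *acsc* with 38.0 (18.9 to 67.9) against 81.9 CPM (62.1 to 106) and *lhx2-1* with 79.4 against 109, again with overlapping intervals. At 30 hpf *foxq2-1* had 162 CPM in cells with *hbn* alone, 179.7 in cells with both and 43.6 in the *six3* class, and *fzd5/8* had 121, 173 and 164, so that the receptor gene no longer separated the classes. The part of doublets and of free RNA in these classes was not tested.

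In cells with *rax*, the share with *hbn* was lower at 30 than at 12 hpf. Among thinned cells with *rax*, it was found in 88.9% at 12 hpf (32 of 36), in 86.9% at 20 hpf (73 of 84), in 71.2% at 24 hpf (79 of 111) and in 53.7% at 30 hpf (94 of 175). *foxq2-1* was found in 41.7%, 9.52%, 13.5% and 9.14% of *rax* cells at these ages, against 6.29%, 3.31%, 2.58% and 1.44% of cells without *rax*. In cells with *z133-1*, *foxq2-1* was found in 50.0% (11 of 22), 42.6% (20 of 47), 32.4% and 14.6%. Cells without *z133-1* had it in 6.36%, 2.85%, 2.64% and 1.46%. At 20 hpf the intervals of the *rax* and *z133-1* cells stood apart. The share of cells with *foxq2-1* was thus lower at 30 than at 12 hpf both with and without these 2 genes. The 16 hpf library had only 7 cells with *rax* and 9 with *z133-1*.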

How the data were processed

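UMI counts per feature and cell of 7 single-cell libraries, 1 per age, were analysed. The authors deposited raw counts from Cell Ranger, and the submitters' processing notes name Cell Ranger 3.1.0 and Seurat 4.0. The genome build and annotation behind the features were not used here, and the depth per library is the sum of UMIs given with the results. The deposited barcode lists and feature names were used as given, in lower case with Sp- removed and _ written as -, and UMIs were added up over the features of a name.

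The filter asked for over 200 and under 4000 genes in a cell and under 10000 UMIs. Doublets were not removed. Python 3.11.15, numpy 2.4.6, scipy 1.17.1, pandas 2.3.3, scanpy 1.11.5 (Scrublet) and matplotlib 3.10.9 were used. Levels were compared as ratios of CPM plus 5, for names with at least 20 UMIs between ages and at least 30 UMIs within a library. Thinning drew 500 UMIs per cell once. The thinning, the binomial intervals and the 2-fold calls were tested on simulated data.

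Genes named are the 6 genes, the 5 names with the highest ratio per library, and members of the lists. Members and lists were chosen with earlier results of these data known. The split by *hbn* and *six3*, the gut and coelomic list, the cells with a gene alone and the genes followed in the classes were added after the values had been seen. *ankat1* and *fgf9/16/20* matched no name. The values of 1 gene of the gut and coelomic list are not reported here.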

Additional observations from a re-analysis of the deposited data

How the results depend on the processing

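No paired analysis was possible because each age has 1 library. The share of cells with at least 2 of the 6 genes was highest at 9 hpf and, among 9 to 30 hpf, lowest at 30 hpf under every alternative run. Without a filter on cells, with the highest Scrublet scores removed, with 1 feature per name and over 20 other draws, the 7 shares stayed within their counting intervals. With more than 500 genes per cell, the 30 hpf share was 7.87%, and the other 6 stayed within theirs. From 6 to 30 hpf the shares were 3.08%, 44.0%, 25.2%, 23.2%, 22.6%, 21.1% and 12.0% after thinning to 1000 UMIs, and 13%, 56.9%, 29.0%, 30.0%, 26.8%, 26.4% and 17.3% without thinning. With at least 2 UMIs per gene and no thinning they were 0.436% and 41.6% at the first 2 ages and 17.6% and 6.66% at the last 2, and within the intervals at 12, 16 and 20 hpf. With at least 3 genes they were 0.0484%, 17.0%, 8.90%, 8.20%, 5.92%, 5.75% and 2.56%. These 4 settings change what is counted. The number of other names at least 2-fold higher in cells with 2 or more of the genes was 8, 196, 143, 197, 271, 382 and 678 in order of age. With 1 CPM added it was 76, 340 and 243 from 6 to 12 hpf, 448 at 20 hpf and 638 at 24 hpf. Without a filter on features it was 18 at 6 hpf and 1010 at 16 hpf, and in thinned cells 695 at 6 hpf and 119 at 9 hpf, with 100 in the 16 hpf library. The cause was not tested. No step of a gene between ages changed its direction past the 2-fold threshold, and only the size factors changed calls. The 6 hpf pairs rest on 0 to 5 cells, and the 16 hpf library has 486 cells.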
